A study of Sus scrofa with 8 samples.

Results

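The genes described here encode transporters that carry monosaccharides, small peptides and amino acids across the small intestinal epithelium. The listed symbols were SLC5A1, SLC5A10, SLC2A2, SLC2A5, SLC15A1, SLC3A1, SLC7A9, SLC7A7, SLC7A1 and SLC1A1, and 9 of the 10 had a probe, of 3216 genes with a symbol and a probe on the array. No probe carried the symbol SLC2A5, which encodes a fructose transporter, and that gene was not analysed here. Each gene was represented by the probe with the highest mean signal over all arrays. All 9 probes were well above background on all 8 arrays and none was saturated.

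Jejunal gene expression was measured on 1-colour Agilent arrays, 1 piglet per array, in 4 suckling and 4 weaned piglets. All were Duroc × Landrace crosses aged 25 days from 4 litters, with 1 piglet taken per litter and treatment. Suckling piglets had stayed with the sow, and weaned piglets had been taken from the sow at 21 days of age, 4 days before sampling, and kept with littermates in nursery pens on a diet with 20.50% crude protein. The sample was a 2 cm length of the middle jejunum, so RNA of all layers of the gut wall that it held entered the array.

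Glucose and galactose enter the enterocyte through the apical sodium-coupled transporter encoded by SLC5A1 and leave through the basolateral facilitative transporter encoded by SLC2A2. Small peptides enter by proton-coupled transport through the product of SLC15A1. Cystine and dibasic amino acids enter through an apical exchanger built from the SLC3A1 heavy chain and the SLC7A9 light chain, and dibasic amino acids leave through a basolateral exchanger whose light chain is encoded by SLC7A7. SLC7A1 encodes a cationic amino acid transporter found in many cell types, and SLC1A1 a high-affinity transporter of glutamate and aspartate.

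Signals are given on the log2 scale relative to the 75th percentile of each array, so that 0 marks that percentile. A level is compared across arrays only, since probes of different genes differ in brightness for the same amount of transcript. Differences are weaned minus suckling, with the standard error (SE) and a two-sided limma p-value adjusted by Benjamini-Hochberg over all 30554 tested probes. In bulk tissue, fewer cells of a type and less RNA per cell cannot be told apart. Each group lay on a slide of its own, and an effect of the slide cannot be told apart from that of weaning. Within each group the replicate number was also the position on the slide. An effect of position therefore cannot be told apart from differences between piglets.

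The suckling array of replicate 1 stood apart from the other 7 arrays. Its 75th percentile of processed intensity was 245, against 317 to 395 on the others, while the share of probes well above background ranged narrowly, from 67.6% to 71.0%, over the 8 arrays. The next lowest percentile, 317, was that of weaned replicate 1, which had the same position on its slide. All 8 measured markers of the villus enterocyte (FABP1, FABP2, APOA1, APOA4, APOC3, MTTP, ANPEP and DPP4) were lower on suckling replicate 1 than on the other suckling arrays. There 4 of 5 markers of crypt and dividing cells were higher. Also lower were 3 of 3 smooth muscle, 3 of 3 fibroblast and 4 of 5 enteroendocrine markers, while 3 of 4 leukocyte markers were higher. Of all tested probes, 30.4% were lower and 37.3% higher on suckling replicate 1 than on the other suckling arrays. The summed linear level of the villus markers, in multiples of the array's 75th percentile, was 625 there, 2849 to 4119 on the other suckling arrays and 1014 to 2187 on the weaned arrays. All 8 villus markers were well above background on all 8 arrays, and of 3 measured gastric markers GKN1 and GKN2 were not well above background on any, while ATP4A was on all 8, at group means of -3.50 and -3.53. The ileal marker SLC10A2 read -7.73 to -4.27 in suckling and -3.78 to -1.50 in weaned piglets (limma adjusted p = 0.232). It was well above background on 2 suckling and 4 weaned arrays. For FABP6, another ileal marker, the ranges overlapped, and the highest value, 1.82, was on weaned replicate 3. Whether the site along the gut differed was not tested. The transporter results below are given with and without this array, a comparison added after its values were seen.

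No transporter passed the threshold between weaned and suckling piglets. Of the 9, 0 had an adjusted p under 0.05 (limma), beside 0.177% of all tested probes (0.173% higher and 0.00327% lower), and 0 had an unadjusted p under 0.05, beside 12.3%. The mean was higher in weaned piglets for 5 genes (SLC15A1, SLC3A1, SLC7A9, SLC7A1 and SLC1A1) and lower for 4 (SLC5A1, SLC5A10, SLC2A2 and SLC7A7). A higher mean was seen for 54.9% of all probes. The weaned and suckling ranges overlapped for all 9, whereas they did not overlap for 7.76% of all probes. The median difference over the 9 genes was 0.23, against 0.04 over all tested probes.

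The picture changed when suckling replicate 1 was left out. SLC5A10 was then lower in weaned piglets past the threshold, so 1 of 9 genes passed, beside 1.82% of tested probes (0.59% lower and 1.23% higher). An unadjusted p under 0.05 was found for 5 of 9 genes, SLC5A1, SLC5A10, SLC2A2 and SLC7A7 on the lower side and SLC7A1 on the higher side, beside 22.5% of all probes (9.3% lower and 13.2% higher). The mean was lower for 6 of 9 genes, beside 45% of all probes. The ranges did not overlap for 4 of 9 genes, 3 of them lower and 1 higher, beside 20.5% of all probes (8.34% lower and 12.2% higher). The median difference of the 9 genes became -0.48, against 0.05 over all probes.

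**Figure D1:**
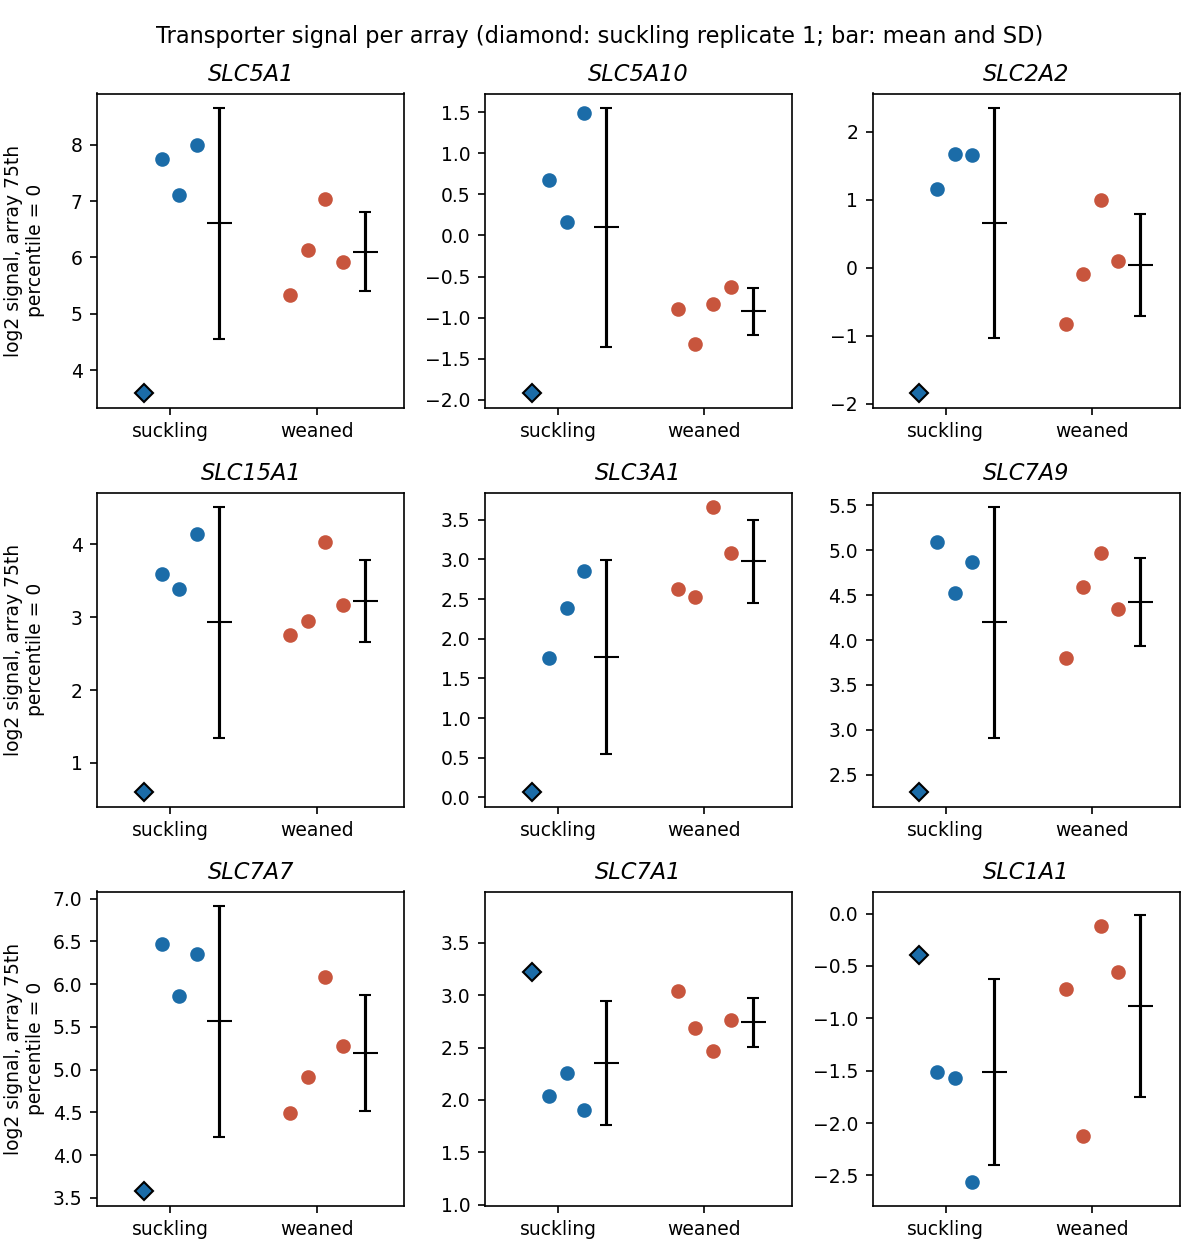
Log2 signal of the 9 transporter genes on each array, relative to the array's 75th percentile, with suckling and weaned piglets side by side, 1 point per piglet and a bar for the group mean and SD. Suckling replicate 1 is drawn as a diamond and lies below all 7 other arrays for 7 of the 9 genes.

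The apical glucose transporter gene SLC5A1 read 3.59, 7.75, 7.11 and 7.99 in suckling replicates 1 to 4 and 5.33, 6.13, 7.03 and 5.92 in weaned replicates 1 to 4. The lowest and the highest of the 8 values were both from suckling piglets, and every weaned value lay below the 3 higher suckling ones. The group means were 6.61 ± 2.05 (SD, n = 4) and 6.10 ± 0.71 (SD, n = 4), a difference of -0.51 (SE 0.89, 95% interval -2.52 to 1.51, limma adjusted p = 0.853). Without suckling replicate 1 the suckling mean was 7.61 ± 0.46 (SD, n = 3) and the difference -1.51 (SE 0.39, interval -2.41 to -0.62), a 2.85-fold lower level in weaned piglets, with an unadjusted p of 0.004 and a limma adjusted p of 0.0820. All 5 probes of this gene gave a lower mean in weaned piglets, from -0.57 to -0.24, and from -1.74 to -1.47 without that array. The chosen probe's difference ranged from -1.51 to -0.04 when single arrays were left out, the latter without suckling replicate 4.

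SLC5A10 encodes another member of the sodium-coupled sugar transporter family. The gene table used for names also lists SGLT1 and SLC5A1 as synonyms of the entry for its transcript, NM_001012297, so which of these genes the probe reports is uncertain. Its chosen probe read -1.92, 0.67, 0.17 and 1.48 in the suckling piglets and -0.90, -1.31, -0.84 and -0.63 in the weaned piglets. The weaned values were close together and lay between suckling replicate 1 and the other suckling values. The difference was -1.02 (SE 0.62, limma adjusted p = 0.542) with all arrays. It was -1.69 without suckling replicate 1 (SE 0.31, interval -2.40 to -0.98, limma adjusted p = 0.0435), a 3.23-fold lower level in weaned piglets, lower in 4 of 4 weaned piglets than in any of the 3 remaining suckling ones.

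The second SLC5A10 probe, also well above background on all 8 arrays, did not show this difference. It read -1.48, -1.58, -1.47 and -0.87 in the suckling piglets and -1.13, -1.24, -1.40 and -1.33 in the weaned piglets. Its difference was 0.08 with all arrays and 0.03 without suckling replicate 1 (limma adjusted p = 0.940). The call for SLC5A10 therefore rests on 1 of its 2 probes and on leaving out 1 array.

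The basolateral sugar transporter gene SLC2A2, which has 1 probe, read -1.85, 1.15, 1.67 and 1.66 in the suckling piglets and -0.82, -0.10, 0.99 and 0.10 in the weaned piglets. As for SLC5A1, the weaned values fell between the low suckling array and the other suckling arrays. The means were 0.66 ± 1.69 and 0.04 ± 0.75 (SD, n = 4 each), a difference of -0.62 (SE 0.76, limma adjusted p = 0.782). With that suckling array left out the groups did not overlap and the difference was -1.45 (SE 0.38, limma adjusted p = 0.0862), a 2.74-fold lower level in weaned piglets that did not pass the threshold. Both glucose transporter genes were set against each other on each array. SLC5A1 minus SLC2A2 read 5.44, 6.59, 5.43 and 6.33 in the suckling piglets and 6.15, 6.23, 6.04 and 5.83 in the weaned piglets. The difference between the groups was 0.11, and -0.06 without suckling replicate 1.

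The peptide transporter gene SLC15A1 read 0.59, 3.59, 3.39 and 4.14 in the suckling piglets and 2.76, 2.95, 4.03 and 3.16 in the weaned piglets. Apart from suckling replicate 1, the ranges overlapped. The means were 2.93 ± 1.59 and 3.23 ± 0.56 (SD, n = 4 each), a difference of 0.30 (SE 0.70, interval -1.28 to 1.87, limma adjusted p = 0.894). The sign turned without suckling replicate 1, to -0.48 (SE 0.32, interval -1.22 to 0.26, limma adjusted p = 0.414). Both probes of the gene gave the same pattern, with differences of 0.30 and 0.29, and -0.48 and -0.60 without that array.

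SLC3A1, the heavy chain that brings its light chain partner to the apical membrane, had the largest positive difference of the 9 genes over all arrays, though not without suckling replicate 1, where those of SLC1A1 and SLC7A1 were larger. It read 0.06, 1.75, 2.39 and 2.86 in the suckling piglets and 2.62, 2.53, 3.66 and 3.09 in the weaned piglets. A single suckling value, that of replicate 4, lay inside the weaned range. The means were 1.77 ± 1.22 and 2.98 ± 0.52 (SD, n = 4 each), a difference of 1.21, or 2.31-fold (SE 0.55, interval -0.04 to 2.46, unadjusted p = 0.057, limma adjusted p = 0.422). The difference without suckling replicate 1 was 0.64 (SE 0.34, limma adjusted p = 0.304). All 4 probes gave a higher mean in weaned piglets, from 0.83 to 1.24, and from 0.22 to 0.69 without suckling replicate 1. The chosen probe did so under each array left out in turn, from 0.64 to 1.57.

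SLC7A9, the light chain that pairs with SLC3A1, read 2.30, 5.10, 4.52 and 4.87 in the suckling piglets and 3.80, 4.59, 4.97 and 4.35 in the weaned piglets. Its means were 4.20 ± 1.29 and 4.43 ± 0.49 (SD, n = 4 each), a difference of 0.23 (SE 0.57, interval -1.07 to 1.52, limma adjusted p = 0.901). The sign turned without suckling replicate 1, to -0.40 (SE 0.28, limma adjusted p = 0.429). Weaned values lay within or below the range of the 3 remaining suckling piglets.

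SLC7A7, the light chain of the basolateral exchanger, read 3.58, 6.46, 5.86 and 6.35 in the suckling piglets and 4.49, 4.91, 6.08 and 5.28 in the weaned piglets. Weaned replicate 3 lay within the range of suckling replicates 2 to 4, and the other weaned values lay below it. The means were 5.56 ± 1.35 and 5.19 ± 0.68 (SD, n = 4 each), a difference of -0.37 (SE 0.63, limma adjusted p = 0.844). Without suckling replicate 1 the difference was -1.04 (SE 0.36, interval -1.86 to -0.22, limma adjusted p = 0.146), a 2.05-fold lower level in weaned piglets that did not pass the threshold. All 4 probes gave lower means in weaned piglets on both sets of arrays.

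The cationic amino acid transporter gene SLC7A1 differed from these in its pattern over the arrays. It read 3.22, 2.04, 2.26 and 1.91 in the suckling piglets and 3.04, 2.69, 2.47 and 2.76 in the weaned piglets, so that suckling replicate 1 was the highest of the 8 arrays. The means were 2.36 ± 0.59 and 2.74 ± 0.24 (SD, n = 4 each), a difference of 0.38 (SE 0.29, limma adjusted p = 0.619). Without suckling replicate 1 all 4 weaned values lay above the suckling ones, with a difference of 0.67 (SE 0.18, interval 0.26 to 1.08, limma adjusted p = 0.0856), 1.59-fold. Its second probe was well above background on 4 of the 8 arrays and gave 0.63 over all arrays.

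The glutamate transporter gene SLC1A1 read -0.40, -1.52, -1.57 and -2.57 in the suckling piglets and -0.72, -2.13, -0.12 and -0.56 in the weaned piglets. By this probe suckling replicate 1 was again the highest suckling array, and weaned replicate 2 stood below the other weaned arrays. Suckling replicate 1 was also the highest by another probe, at -2.89. By the remaining probes it read -4.06 and -4.35, below suckling replicate 3 at -3.75 and -4.07. The means were -1.51 ± 0.89 and -0.88 ± 0.87 (SD, n = 4 each), a difference of 0.63 (SE 0.52, limma adjusted p = 0.660), and 1.00 (SE 0.48, limma adjusted p = 0.255) without suckling replicate 1. All 4 probes of this gene gave higher means in weaned piglets, from 0.63 to 0.82.

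**Figure D2:**
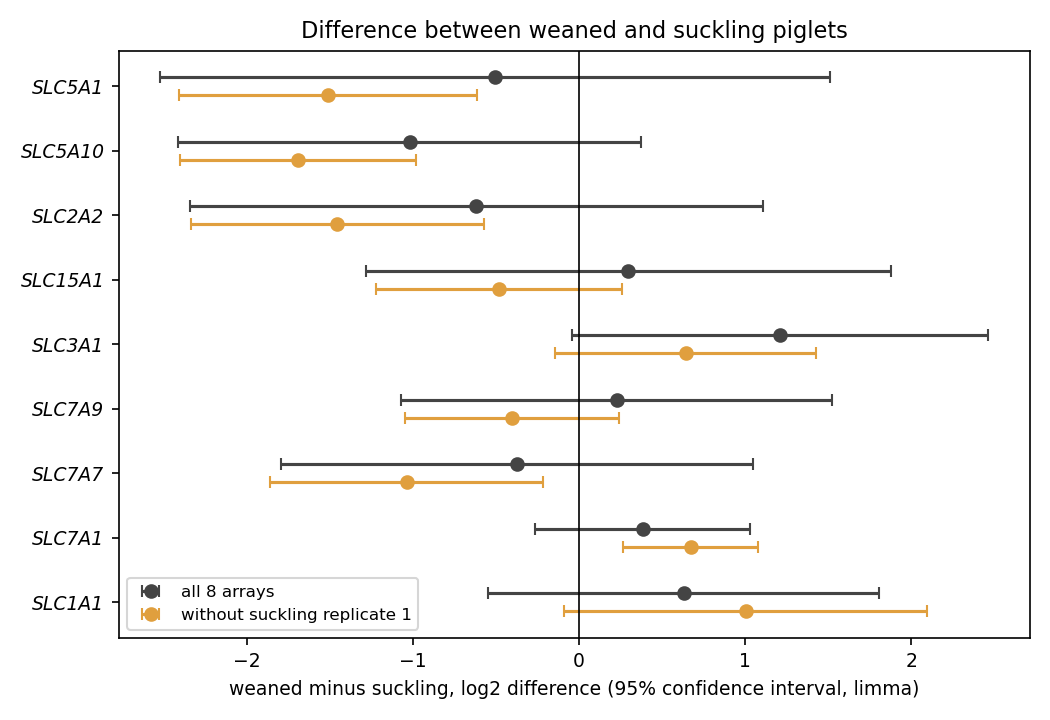
Difference between weaned and suckling piglets for each of the 9 transporter genes, on the log2 scale, with 95% confidence intervals from limma, over all 8 arrays and without suckling replicate 1. With all arrays every interval includes 0, and without that array the differences of SLC15A1 and SLC7A9 change sign.

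By the chosen probes, suckling replicate 1 lay at an edge of the suckling group for all 9 transporters. The second probes of SLC5A10 and SLC7A1 placed it inside the suckling range, at -1.48 and -4.89. The SLC1A1 probes disagreed, as given above. The counts and folds that follow are for the chosen probes. It lay below the other 3 suckling arrays for 7 of 9 genes, beside 30.4% of all tested probes, and below all 7 other arrays for the same count of genes, beside 19% of all probes. It lay above the other suckling arrays for 2 of 9, beside 37.3% of all probes, and for 1 of the 2, SLC7A1, above all 7 others, beside 20.6%. Against the mean of the other suckling arrays, SLC5A1 was 16.3-fold lower there, SLC2A2 10.2-fold, SLC15A1 8.65-fold and SLC5A10 6.47-fold. SLC7A7 was 6.29-fold lower, SLC7A9 5.76-fold and SLC3A1 4.82-fold, while SLC7A1 was higher by 1.15 and SLC1A1 by 1.49 on the log2 scale. The median of this difference was -2.65 over the 9 genes and 0.06 over all probes. The villus marker level given above was low on the same array, and its part in these results was not tested.

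By the median SD, the transporters also varied more than all tested probes within both groups. The median SD among suckling piglets was 1.35 for the 9 genes and 0.33 for all tested probes, and among weaned piglets 0.56 and 0.25. Leaving out suckling replicate 1, the suckling median was 0.39, against 0.25 for all probes. SLC7A1 was below the median of all probes, at 0.24 among weaned piglets and 0.18 among suckling piglets without that replicate. Among the weaned arrays, replicate 3 was the highest for 7 of 9 genes, beside 26.5% of all probes, and replicate 1 the lowest for 5 of 9, beside 22%. The villus markers followed a like order, with replicate 3 the highest for 6 of 8 and replicate 1 the lowest for 8 of 8.

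**Figure D3:**
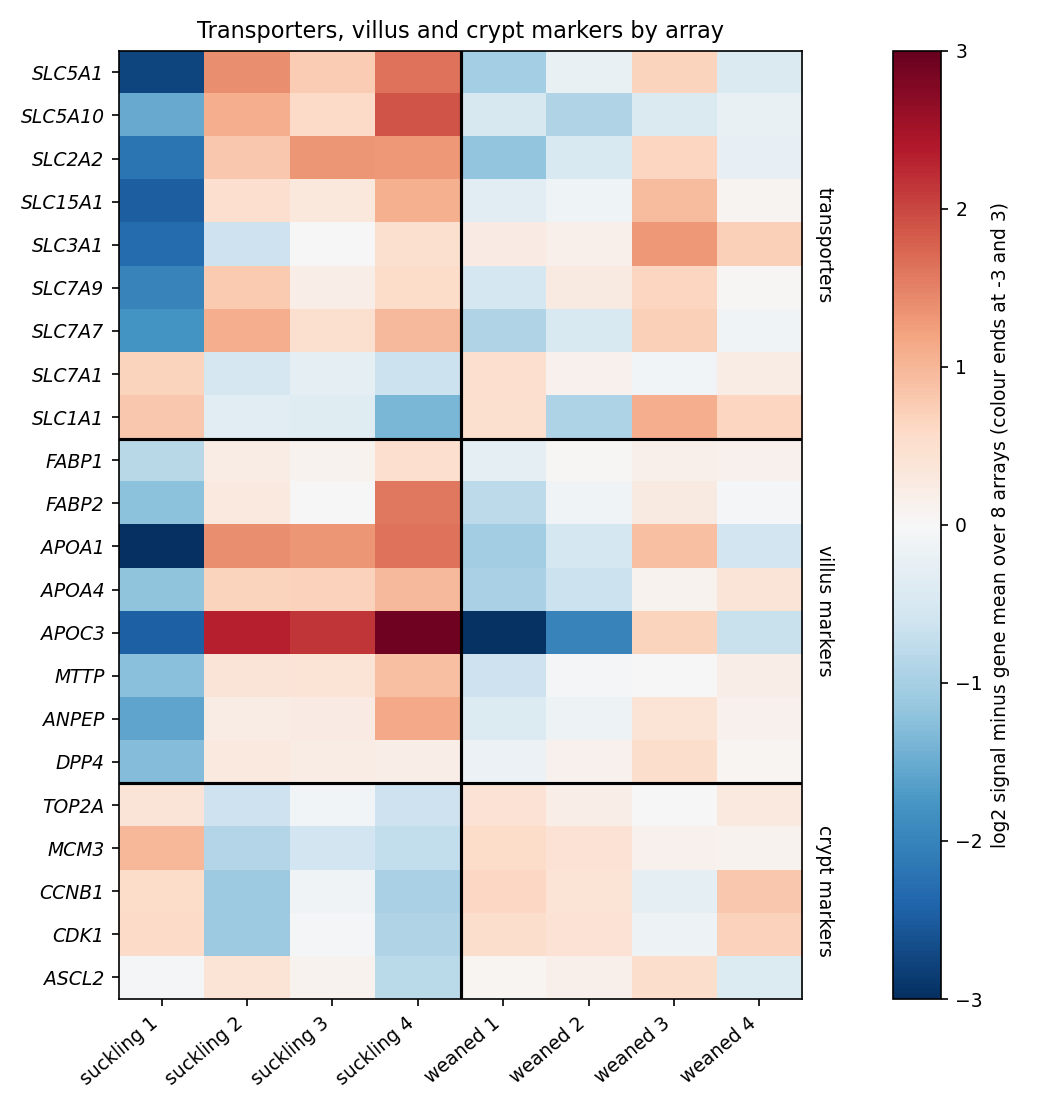
Log2 signal of the transporter genes and of the markers of villus enterocytes and of crypt and dividing cells on each array, each gene centred on its mean over the 8 arrays, with colour from lower to higher. The column of suckling replicate 1 is low for 7 of 9 transporters and for the villus markers, and not for SLC7A1 and SLC1A1.

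The villus markers other than ANPEP and DPP4 are genes of fat absorption. To describe the transporters relative to this marker set, the mean of the 8 centred villus markers was subtracted on each array. This score of the markers was -1.62, 0.73, 0.64 and 1.23 in the suckling piglets and -0.91, -0.41, 0.38 and -0.05 in the weaned piglets. No villus marker passed the threshold between the groups, with or without suckling replicate 1, although all 8 had lower means in weaned piglets without it. The scaling of the arrays cancels in these relative values, which were not tested and are not levels per absorptive cell.

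On this relative scale the ranges of 3 of 9 genes did not overlap, all higher in weaned piglets, beside 0.353% of all probes. The score ranged from -1.62 to 1.23 among suckling piglets, beside a median suckling SD of 0.33 over all probes. For probes that did not follow the markers, the subtraction itself made the ranges overlap, so this share is low by construction. SLC3A1 read 1.68, 1.02, 1.75 and 1.63 in the suckling piglets and 3.53, 2.94, 3.28 and 3.13 in the weaned piglets, a difference of 1.70. SLC15A1 read 2.21, 2.86, 2.75 and 2.91 against 3.67, 3.36, 3.65 and 3.21, a difference of 0.79. SLC7A9 read 3.92, 4.37, 3.88 and 3.64 against 4.71, 5.01, 4.58 and 4.39, a difference of 0.72. Suckling replicate 1 lay inside the range of the other suckling arrays for SLC3A1 and SLC7A9 and was the lowest for SLC15A1. The sugar transporter genes gave -0.01 for SLC5A1, -0.12 for SLC2A2 and -0.53 for SLC5A10, and SLC7A7 gave 0.12. SLC7A1 gave 0.88 and SLC1A1 1.12, with suckling replicate 1 the highest array for both. The ranges of these 6 genes overlapped. With suckling replicate 1 left out, 5 of 9 genes were higher without overlap and 0 lower, but so were 60.4% and 0.223% of all probes.

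These relative values depended on the markers chosen. The shares of all probes given for the villus marker sets carry the same limit as above. APOC3, an apolipoprotein gene, had the widest difference of the markers, and without it SLC3A1 alone of the 9 had non-overlapping ranges, at 1.42, beside 0.268% of all probes higher and 0.317% lower. The set without genes of fat absorption held the 2 brush border peptidase genes ANPEP and DPP4 alone. Against these, SLC3A1 was at 1.08 with non-overlapping ranges, beside 0.167% of all probes. SLC15A1 at 0.16 and SLC7A9 at 0.09 overlapped, and SLC5A10 at -1.15 was lower without overlap, beside 1.55%. Against the general epithelial markers EPCAM, CDH1 and KRT8, SLC3A1 was at 0.96, and none of the 9 separated, beside 0.857% of all probes higher and 8.82% lower. Of these markers KRT8 was itself higher in weaned piglets by 0.70 (limma adjusted p = 0.218), while EPCAM differed by -0.04 and CDH1 by 0.09. SLC5A1 was at -0.30 without APOC3, -0.64 against ANPEP and DPP4 and -0.75 against the general epithelial markers. Against all villus markers it was at -0.40 without suckling replicate 1. Its ranges overlapped in each case. These marker sets were chosen after the first values were seen.

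**Figure D4:**
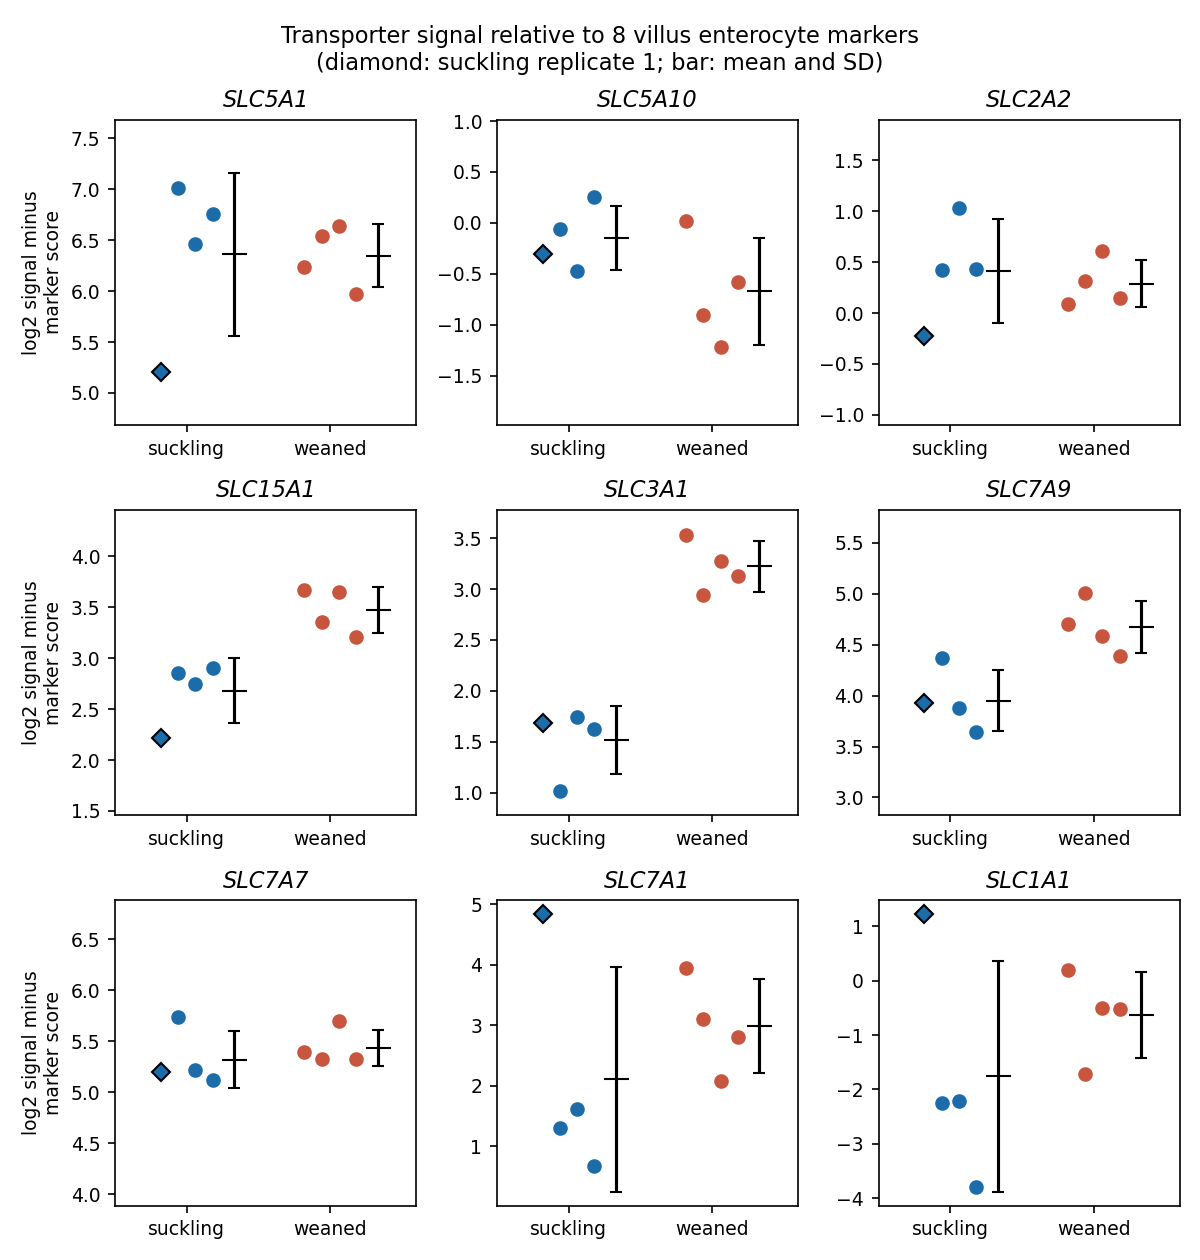
Log2 signal of the transporter genes minus the score of 8 villus enterocyte markers on each array, in suckling and weaned piglets, 1 point per piglet and a bar for the group mean and SD. The weaned points of SLC3A1, SLC15A1 and SLC7A9 lie above all suckling points, and those of the other 6 genes overlap.

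Pairs of transporters were also set against each other on each array, as a description with no test, chosen after the values were seen. The heavy chain minus its light chain, SLC3A1 minus SLC7A9, was -2.24, -3.34, -2.13 and -2.02 in the suckling piglets and -1.17, -2.06, -1.30 and -1.26 in the weaned piglets. It was higher by 0.98 in weaned piglets, by 1.05 without suckling replicate 1, and the ranges overlapped only through weaned replicate 2. The basolateral minus the apical light chain, SLC7A7 minus SLC7A9, was 1.27, 1.37, 1.34 and 1.48 against 0.69, 0.32, 1.11 and 0.93. It was lower by 0.60 in weaned piglets with no overlap, as were 1.05% of all probes relative to SLC7A9. That share is also low by construction, since SLC7A9 varied widely among suckling piglets. The glucose minus the peptide transporter, SLC5A1 minus SLC15A1, was 3.00, 4.16, 3.71 and 3.85 against 2.56, 3.19, 2.99 and 2.76. Its group difference was -0.80, with overlapping ranges over all arrays, and -1.03 without suckling replicate 1. Suckling replicate 1 lay inside the suckling range for the first pair and was the lowest suckling array for the other two.

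The likeness of the patterns was measured as the root mean square difference between 2 genes' centred log2 values over the 8 arrays, where 0 would be identical. Among the transporters, SLC15A1 and SLC7A9 were each other's nearest at 0.33. SLC7A7 was nearest to SLC7A9 at 0.37, SLC2A2 to SLC7A7 at 0.38, and SLC5A1 to SLC2A2 at 0.39. SLC7A1 and SLC1A1 were nearest to each other at 0.64. Of 2764 other named genes, the closest to SLC5A1 were APOA1 (0.28), CES3 (0.29) and DAO (0.30). ACSL3 was the closest to both SLC15A1 and SLC7A9 (0.26 each). TCN2 (0.29) was also among the closest to SLC15A1, and CCL25 (0.26) and TMBIM6 (0.29) were among the closest to SLC7A9.

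Other genes of intestinal nutrient handling were taken from 5 lists of 75 genes, of which 22 had a probe and 21 were tested. None passed the threshold (limma), and 3 of 21 had an unadjusted p under 0.05, SLC38A5, TAS1R3 and CCK, beside 12.3% of all probes. Of 3 other sugar transporter genes 1 had a higher and 2 a lower mean in weaned piglets, with a median difference of -0.53, and -1.21 without suckling replicate 1. Of 6 other amino acid and peptide transporter genes 3 were higher and 3 lower (median -0.01), and 2 were lower without that array (median 0.04). Of 10 partners and regulators of apical uptake 4 were higher and 6 lower (median -0.10), and 8 were lower without it (median -0.30). The 2 gut peptide genes went 1 each way, and both were lower without it (median -0.81). Beside these counts, 54.9% of all probes had a higher mean with all arrays, and 45% a lower mean without that array. The 4 brush border carbohydrase genes had no named probe and were not analysed here.

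Among the sugar transporters, SLC5A11, a sodium-coupled inositol transporter gene, read -0.42, 2.62, 1.65 and 2.64 in the suckling piglets and 0.44, 0.80, 2.51 and 0.60 in the weaned piglets, a difference of -0.53, and -1.21 without suckling replicate 1 (limma adjusted p = 0.206). SLC2A4, the insulin-responsive glucose transporter gene, differed by 0.39. SLC5A4, a relative of SLC5A1 named after its values were seen, read 1.03, 6.27, 5.58 and 6.27 against 2.70, 3.56, 5.86 and 3.62, with a difference of -0.85, and -2.10 without suckling replicate 1 (limma adjusted p = 0.120). SLC5A11 and SLC5A4 shared the low suckling replicate 1 and the high weaned replicate 3 with SLC5A1.

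SLC38A5, a glutamine transporter gene, read 4.26 in suckling replicate 1, 3.03 to 3.54 in the other suckling piglets and 4.56, 4.16, 3.93 and 4.85 in the weaned piglets. It differed by 0.89 (limma adjusted p = 0.311), and a single suckling value, that of replicate 1, lay within the weaned range. The peptide transporter gene SLC15A2 differed by -0.78, and by -0.47 without that array.

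TAS1R3, a subunit of the sweet and umami taste receptors, read -0.17, 1.33, 1.13 and 1.07 in the suckling piglets and -0.24, -0.23, 0.05 and 0.24 in the weaned piglets. Its difference was -0.89 (limma adjusted p = 0.321), and without suckling replicate 1 it was -1.22 and passed the threshold (limma adjusted p = 0.028). TAS1R3 was the single list gene of 21 that did, beside 1.82% of all tested probes (0.59% lower). SLC9A3R1, a scaffold protein gene of the brush border, differed by 0.52 (limma adjusted p = 0.429), and by 0.30 without that array.

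CCK, which encodes cholecystokinin, read 4.63, 5.38, 4.66 and 6.09 in the suckling piglets and 3.87, 4.35, 4.15 and 3.75 in the weaned piglets. All 4 weaned values lay below all suckling values, beside 7.76% of all probes without overlap in either direction. Suckling replicate 1 was the lowest suckling array, close to replicate 3. The difference of -1.16 did not pass the threshold (SE 0.33, limma adjusted p = 0.232). GCG, which encodes proglucagon, differed by 0.09, and the sign turned without suckling replicate 1, to -0.27.

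**Figure D5:**
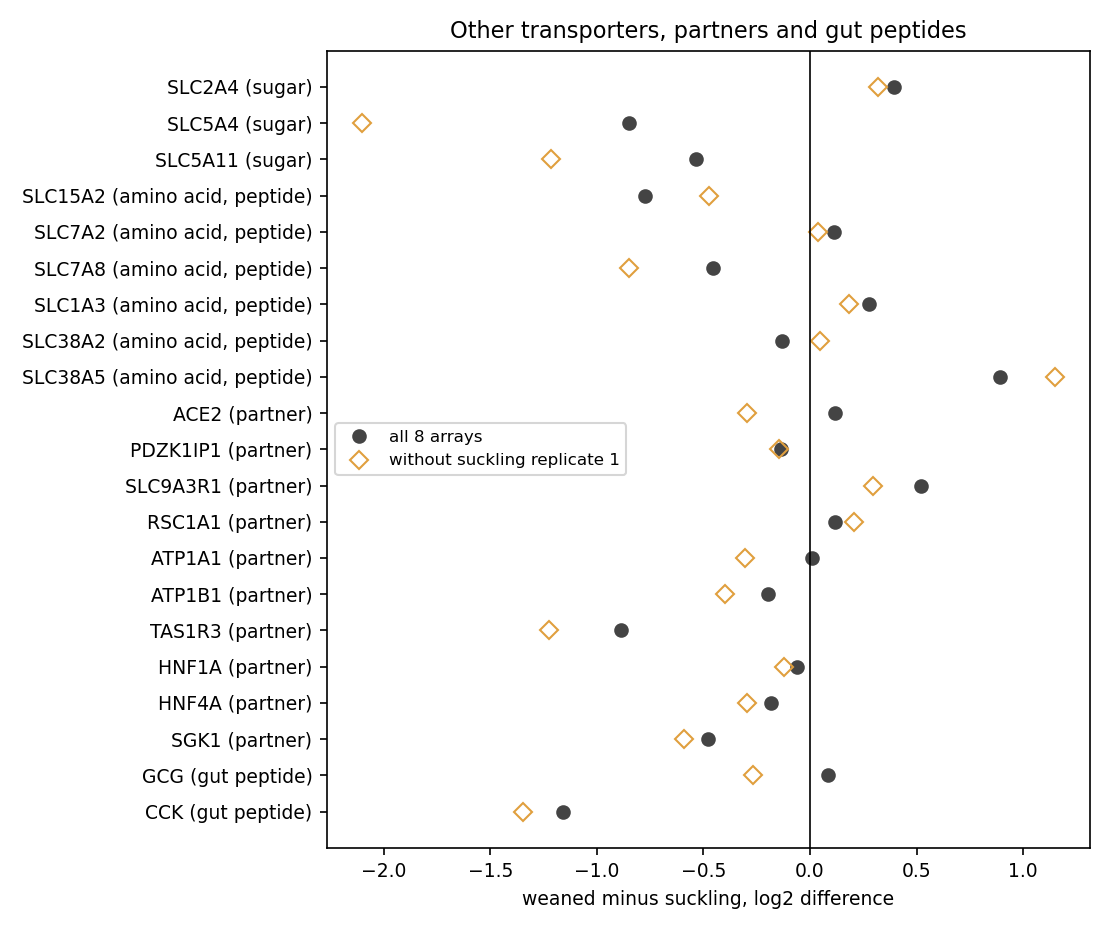
Difference between weaned and suckling piglets on the log2 scale for the 21 tested genes of the other lists, 1 row per gene, over all 8 arrays (filled circles) and without suckling replicate 1 (open diamonds). CCK is the lowest with all arrays at -1.16, SLC5A4 the lowest without that array at -2.10, and SLC38A5 the highest on both sets.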

How the data were processed

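Per the file headers, Agilent Feature Extraction 10.7 read the scans, and the scanner files deposited by the authors hold a background-subtracted processed intensity per spot. The deposited table of log2 values, which had a common distribution over the arrays, served as an alternative. Control spots were left out, outlier spots set to missing and spots of a probe averaged, which gave 43603 probes. The log2 intensity was taken minus each array's 75th percentile. Probes well above background on at least 4 arrays, with at least 3 values per group, were tested by a two-sided linear model with group alone (lmFit and eBayes of limma 3.58.1, run under R 4.3.3). An adjusted p under 0.05 passed. The fit was also run on simulated data with independent noise. Those data held no outlying array and no slide effect, so the run does not bear on either. The number of arrays limits the precision. RefSeq accessions were named through a table of the Sscrofa11.1 assembly, which gave 15.9% of probes a symbol; no sequence was used, so binding of a probe to related genes was not tested.

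The text names all listed transporters, from each of the 5 other lists the genes past the threshold or otherwise the 2 with the smallest p, and the 3 genes most like each of SLC5A1, SLC15A1 and SLC7A9, of which 1 is not reported here. The members and lists were chosen with earlier results of these data known. Alternatives were 3 scalings or background corrections, other filters and fits, the replicate block and each array left out.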

Additional observations from a re-analysis of the deposited data

Results flagged for a closer look

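In 62 groups of 4 values, 5 had a highest or lowest array set apart from the others by a gap above Dixon's limit, which 5% of groups would pass by chance. Suckling replicate 1 was the low array for SLC2A2, with a gap of 0.852 of the range, and for TAS1R3, with 0.830. Weaned replicate 2 was the low array for SLC2A4, with 0.866. Weaned replicate 4 was low in the score of enteroendocrine markers, with 0.903, and weaned replicate 1 in the 75th percentile of intensity, with 0.918. The low values of SLC5A1, SLC15A1 and SLC7A9 on suckling replicate 1 did not pass this limit.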

How the results depend on the processing

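The count of transporters past the threshold stayed at 0 under all alternatives that kept the 8 arrays, and was 0 to 1 when single arrays were left out, the 1 being SLC5A10 without suckling replicate 1. SLC15A1 and SLC7A9 turned sign under array weights, to -0.28 and -0.18, and ranged from -0.48 to 0.70 and from -0.40 to 0.53 with single arrays left out. The other 7 kept their direction under all 19 alternatives. The list genes past the threshold numbered 0, 1 under array weights and 0 to 1 with single arrays left out. Over all probes, 54 passed, 362 under array weights, 0 with normexp background correction and 9 to 553 with single arrays left out. The replicate block gave 0. The labels give no litter for a replicate number, and same-numbered arrays shared a slide position. The deviations of same-numbered arrays correlated at 0.37, 0.01, 0.19 and -0.02, and 3 of 8 arrays correlated best with their own number. The median difference of all probes, 0.04, became -0.10 with normexp, and the cause of these changes was not tested. Relative to the general epithelial markers in place of the villus markers, the differences were 0.050 for SLC15A1, -0.87 for SLC2A2, 0.96 for SLC3A1, -1.27 for SLC5A10, -0.62 for SLC7A7 and -0.021 for SLC7A9. Relative to ANPEP and DPP4 they were 0.16, -0.75, 1.08, -1.15, -0.51 and 0.095 in the same order, and SLC7A7 was at -0.17 without APOC3. Of 26 transporter probes, 2 that were not chosen were not well above background on all arrays, 1 of SLC7A1 (on 4 of 8) and 1 of SLC1A1 (on 7 of 8).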
